A study of Mus musculus with 23 samples.

Results

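The cytosolic ribosome is built from ribosomal RNA and a fixed set of ribosomal proteins, whose genes are named Rpl for the large subunit and Rps for the small subunit. The genes described here are those whose mouse symbol is Rpl or Rps followed by a digit, together with Rplp0, Rplp1, Rplp2 and Rpsa. Pseudogenes and the Rps6k kinases were left out. The rule took 89 symbols from the RefSeq gene table, after 6 annotated as pseudogenes were set aside, and 84 of these had a probe on the array. For 83 of the 84 a probe was well above background on at least 3 arrays, out of 23707 features tested in all, of which 15466 carried a gene symbol. The member not tested was Rpl10l, a copy of Rpl10 that is mostly expressed in testis. Its probes were well above background on none of the 23 arrays. Rps7, Rps14, Rpl37, Rpl41 and Rps27rt were not analysed here.

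Total RNA came from the gastrocnemius, a calf muscle, of male C57BL/6J mice from an ageing-research colony. Training began at 5 months of age (called adult here) or 24 months (old), and the muscle was labelled as taken at 6 and 25 months. Sedentary controls were placed daily on a treadmill that was switched off. High-intensity interval training (HIIT) alternated 3 fast bouts, each of 2 min at a speed of 27 m/min, with 1-min recoveries at 5 m/min. Moderate-intensity continuous training (MICT) was a single run lasting 45 min at a speed of 13 m/min. Both were repeated daily for 4 weeks, and tissue was taken after 12 h of rest. Each group had 4 arrays except adult MICT, which had 3. The labels carry no animal identifier, so p-values measure the spread between these samples.

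Ribosomal proteins are made in step with each other in nearly every cell, and their messenger RNAs are among the most abundant and most even transcripts of a tissue. Most of these messenger RNAs start with a C followed by a run of pyrimidines, the 5′ terminal oligopyrimidine (TOP) tract, through which the kinase mTOR and the RNA-binding protein Larp1 control how heavily they are translated. Skeletal muscle is known for replacing some general translation proteins by muscle forms. Rpl3l takes the place of Rpl3 near the peptidyl transferase centre, and Eef1a2 takes that of the elongation factor Eef1a1.

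The bases around the annotated transcript starts were searched for a run of this kind. They are printed here for common members and for those whose values are followed below. Sequences are RefSeq's, from a table of GRCm38.p6 start sites that held 64 of the 83 tested members, and Rpl3 and Rpl36 were among those not in it. Each line gives 30 bases, 15 before and 15 from the annotated start. Capitals mark a run of a C followed by at least 6 further C or T bases. A run was counted if any part of it came within about 15 bases of the start. It could therefore lie partly outside the printed bases, and it need not begin at the start itself. The windows are chr4:86857353-86857382 (minus strand) for Rps6, chr7:4792950-4792979 (plus) for Rpl28, chr2:26910792-26910821 (plus) for Rpl7a, chr8:3567983-3568012 (plus) for Rps23rg1, chr3:28805493-28805522 (plus) for Rpl22l1, chr11:68901551-68901580 (plus) for Rpl26, and chr17:24727811-24727840 (plus) for the first of 2 listed starts of Rpl3l.
Rps6: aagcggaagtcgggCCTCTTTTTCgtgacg
Rpl28: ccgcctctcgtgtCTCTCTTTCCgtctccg
Rpl7a: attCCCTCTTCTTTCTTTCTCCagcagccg
Rps23rg1: gctttgcagagagtCTTTCTCTCaccccag
Rpl22l1: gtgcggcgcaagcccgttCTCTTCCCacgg
Rpl26: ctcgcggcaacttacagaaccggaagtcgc
Rpl3l: gagtgttctagctctgtcatttgacctctg
A run so defined was present on the transcript strand at 38 of the 64 members (59.4%) and on the other strand at 8 (12.5%). Among all 27025 genes of the table the shares were 23% and 25.4%. The hexamer CGGAAG, searched on both strands from 250 bases before to 50 after the start, stood at 41 of the 64 (64.1%) and at 18.8% of all genes. Because fewer than 80% of the tested members had an entry, these shares describe the 64 genes and not the family. Neither start of Rpl3l had these letters, which says nothing of how its messenger RNA is controlled.

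Skeletal muscle transcripts were detected in every group. All 12 fast-fibre and all 10 slow-fibre markers were well above background on at least 1 array of each. This does not tell the gastrocnemius from other muscles. Between 47.2% and 58.9% of gene spots were well above background on an array, and no gene spot was saturated. Levels below are log2 intensities after subtracting the log2 of the array's own 75th percentile, so a level of 0 equals that percentile, and a difference of 1 is a doubling. The arrays lay on 3 slides, with adult controls and adult HIIT on slide 1, adult MICT and old controls on slide 2, and old HIIT and old MICT on slide 3. Slide and group therefore cannot be told apart in most comparisons, and only adult HIIT against adult control, old HIIT against old MICT and old control against adult MICT lie within a slide.

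Ribosomal protein transcripts varied little from array to array. Their median SD within groups was 0.131 log2 units, against 0.315 for all features, and only 3.37% of all features had an SD as low. All features include dim ones, well above background on as few as 3 arrays, and no comparison with equally bright features was made. Rpl19, a large-subunit protein, had the lowest SD over the 23 arrays at 0.082. Rpl35a followed at 0.086. At the other end stood Rpl39l at 0.843, Rps23rg1 at 0.567 and Rpl3 at 0.433, a paralogue, a retrogene and a standard large-subunit gene. Of the 73 standard large-subunit, small-subunit and P-stalk genes, 71 had an SD under 0.25.

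Training in adult mice was not accompanied by a called change in any member. "Called" here means a Benjamini-Hochberg adjusted p under 0.05 from limma, adjusted over all 23707 features. With HIIT, 0 of 83 members were called against 0% of all features, and 1 member and 1206 features had an unadjusted p under 0.05. That member was Rpl36a, at -0.28 ± 0.11 (SE, limma adjusted p = 0.923). With MICT, 0 of 83 were called against 0% of all features, and 1 member had an unadjusted p under 0.05, as had 2.05% of all features. The smallest p there belonged to Rpl17, at -0.21 ± 0.10 (SE, limma adjusted p = 1). The precision was high enough to bound these results, since the 95% interval of the difference lay within 1.5-fold in either direction for 79 of 83 members in each comparison. The median difference of the members was -0.09 for HIIT and -0.06 for MICT, beside -0.01 and -0.02 for all features. HIIT against MICT in adult mice gave 0 of 83 members called and 0% of all features, with 0 members and 7.75% of all features at an unadjusted p under 0.05.

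**Figure D1:**
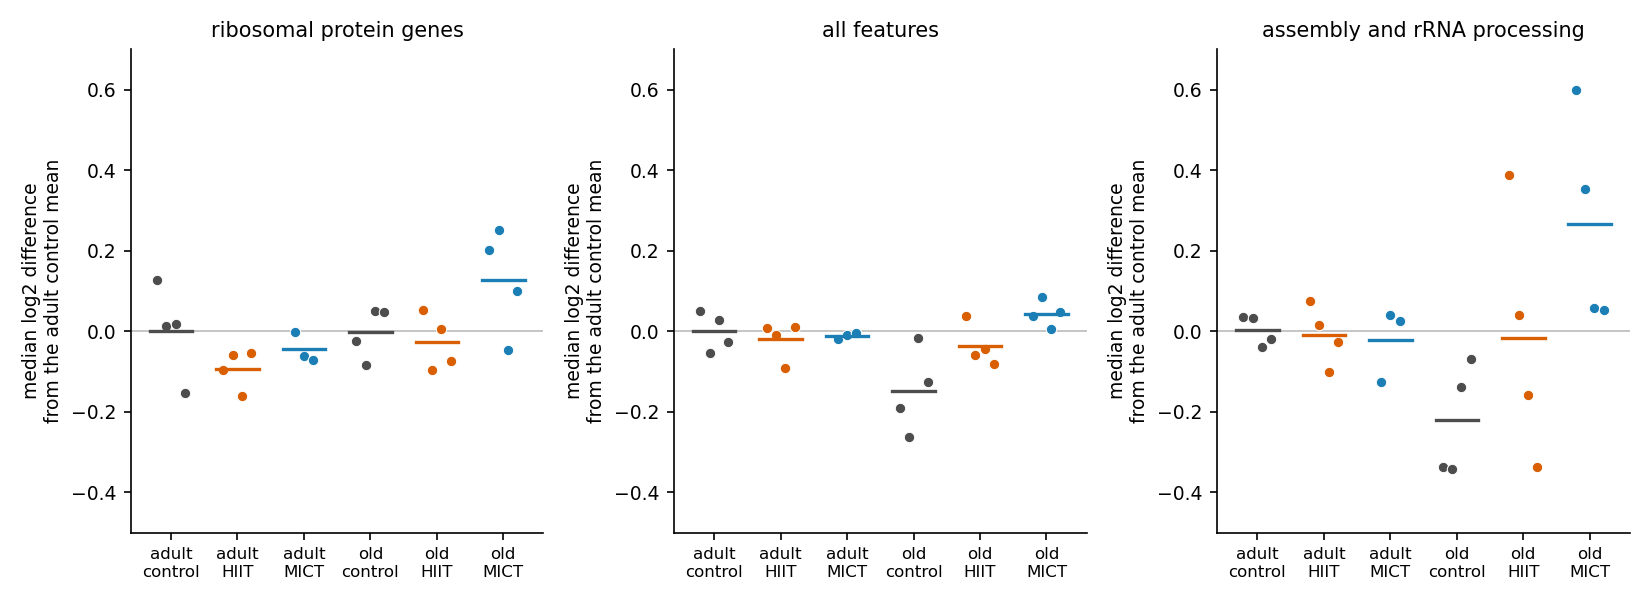
Median log2 difference from the adult control mean, one point per array and a line at the group mean, for the 83 ribosomal protein genes, for all 23707 features and for 62 genes of ribosome assembly and rRNA processing. The ribosomal protein medians run from -0.16 to 0.25, with old MICT 1 and 2 highest.

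In old mice, HIIT against control gave 0 of 83 members called, with 2 at an unadjusted p under 0.05, as had 15.8% of all features, and 0.494% of all features were called. The members' median was -0.02, beside 0.08 for all features, and the interval of 78 of 83 lay within 1.5-fold. Rps23rg1 had the smallest p, at 0.86 ± 0.29 (SE, limma adjusted p = 0.186). Rpl3l followed at 0.40 ± 0.15 (SE, limma adjusted p = 0.222).

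Old MICT against old control gave 5 members called of 83 (6.02%), all higher, where 30.4% of all features were called and 21.3% were called higher. The groups did not overlap for 5 members (6.02%) and for 22.1% of all features. The called members were Rps23rg1, Rpl3l, Rpl36, Rpl7a and Rpl26. The other 78 members had no call, and the interval lay within 1.5-fold for 76 of 83 members but for 23.1% of all features. By role, 3 of 41 large-subunit genes, 0 of 29 small-subunit genes, 0 of 3 P-stalk genes and 2 of 9 paralogues and retrogenes were called. Medians were 0.15, 0.11, 0.15 and 0.18 in that order.

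The direction of the family as a whole depended on the scaling of the arrays. With the 75th percentile, 78 of 83 members were above 0 in old MICT and their median was 0.14, beside 0.19 for all features, so that 17 of 83 lay above the median of all features. Quantile scaling moved the median of all features from 0.19 to 0.06 and that of the members to -0.16, with 6 of 83 above the median of all features. It called 1 member higher and 12 lower, where 3035 of all 23707 features were called higher and 2389 lower. Relative to all features the members stood 0.06 log2 units lower under the first scaling and 0.22 lower under the second. Old control against adult control was the reverse, with members 0.14 and 0.25 above all features. Without the filter on dim features these positions turned. The members' median in old MICT was then 0.14, beside 0.07 for all features (69 of 84 above), and with age -0.003, beside 0.02 (37 of 84 above).

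**Figure D2:**
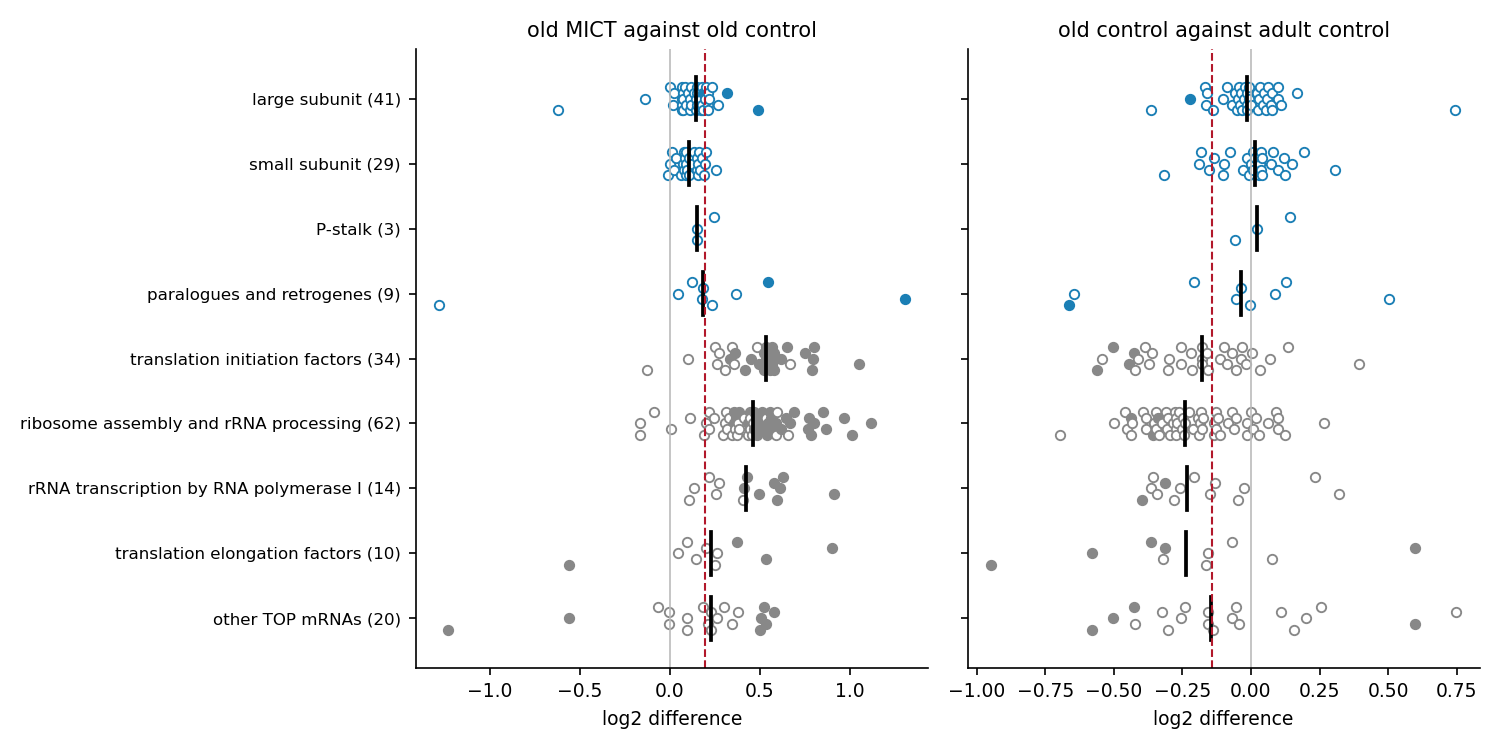
Log2 differences of single genes, by role, for old MICT against old control and old control against adult control; filled points are called (limma adjusted p under 0.05), black bars are medians, the dashed line is the median of all features and the number tested is in brackets. Ribosomal protein genes (blue) cluster near 0.1 in the left panel, while 24 of 34 initiation factors and 32 of 62 assembly genes (grey) are called higher. Among all features, 21.3% are called higher in that comparison.

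Age was accompanied by 2 called members of 83 (2.41%), both lower in old controls, where 12.9% of all features were called and 8.31% were called lower. They were Rpl3l and Rpl26. The 2 groups did not overlap for 2 members, Rpl26 and Rps15, and for 15.1% of all features. The members' median was -0.005, beside -0.14 for all features, and the interval lay within 1.5-fold for 76 of 83. Quantile scaling gave 10 members called higher and 1 lower, where 1151 of all 23707 features were called higher and 1790 lower. On slide 2 alone, old control against adult MICT, a comparison that differs in both age and training, gave 1 member called of 83 (1.2%) against 6.47% of all features. This was Rpl3l again.

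Rpl3 encodes a large-subunit protein at the core of the peptidyl transferase centre, and Rpl3l is its counterpart in heart and skeletal muscle. Rpl3l stood at 6.93, 6.27, 6.76 and 6.70 in adult controls 1 to 4 and at 5.77, 5.89, 6.40 and 5.95 in old controls 1 to 4. The old controls were lower except that old control 3 lay above adult control 2. The difference was -0.66 ± 0.15 (SE, limma adjusted p = 0.0129), or 1.58-fold lower. Old HIIT 1 to 4 had 6.57, 6.18, 6.40 and 6.44, and old MICT 1 to 4 had 6.41, 6.66, 6.51 and 6.62. Every old MICT array was above every old control, with a difference of 0.55 ± 0.15 (SE, limma adjusted p = 0.0125). The nearest arrays were close, at 6.399 on old control 3 and 6.407 on old MICT 1. Quantile scaling took the MICT difference to 0.28, with no call (adjusted p = 0.0903), and kept the age call. Within slide 2 the old controls were below all 3 adult MICT arrays, which had 6.78, 6.65 and 6.93, by a difference of -0.79 ± 0.16 (SE, limma adjusted p = 0.0123). The old controls enter both the age and the MICT comparison, so the opposite signs are not independent.

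Rpl3 was measured by 1 probe, as was Rpl3l. It stood at 4.67, 5.75, 4.64 and 4.75 in adult controls 1 to 4 and at 5.63, 5.95, 5.09 and 6.11 in old controls 1 to 4. Adult control 2, the array with the lowest Rpl3l of its group, was the only adult control above any old control. Old HIIT arrays lay between 5.26 and 5.55 and old MICT arrays between 4.76 and 5.55. Rpl3 was not called in either comparison, at 0.74 ± 0.25 (SE, limma adjusted p = 0.0547) for age and -0.62 ± 0.25 (SE, limma adjusted p = 0.067) for old MICT. It was called with quantile scaling, at 0.89 (adjusted p = 0.0402) and -0.90 (adjusted p = 0.0265).

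The change of Rpl3l less the change of Rpl3, counted within an array from the adult control mean, does not depend on a scaling by a constant. It ran from -1.19 to 0.55 in adult controls, -1.88 to -0.40 in old controls, -0.87 to -0.40 in old HIIT and -0.85 to 0.15 in old MICT. Its means were 0, -1.41, -0.69 and -0.24. Old controls had the lowest mean of these groups, and their highest array, old control 3, overlapped the others.

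The elongation factor 1A pair, which delivers aminoacyl-tRNA to the ribosome, had values of the same arrangement. Eef1a2, the muscle and neuron form, stood at 5.50, 4.72, 5.34 and 5.72 in adult controls 1 to 4 and at 4.06, 4.29, 4.83 and 4.31 in old controls 1 to 4. It fell with age, at -0.95 ± 0.21 (SE, limma adjusted p = 0.0131), and rose with MICT in old mice, at 0.90 ± 0.21 (SE, limma adjusted p = 0.00719). Eef1a1, the general form, was called in the opposite directions, at 0.60 ± 0.20 (SE, limma adjusted p = 0.0486) and -0.56 ± 0.20 (SE, limma adjusted p = 0.0374). The Eef1a1 call for age was lost in 7 of 12 other settings and 14 of 23 fits that left out single arrays, and that for old MICT in 5 and 5. The Eef1a2 calls were lost in 3 of 12 settings each, and in 3 and 0 of those fits. As with the Rpl3 pair, adult control 2 had the lowest Eef1a2 and the highest Eef1a1 of the adult controls, and old control 3 the highest Eef1a2 and the lowest Eef1a1 of the old controls.

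**Figure D3:**
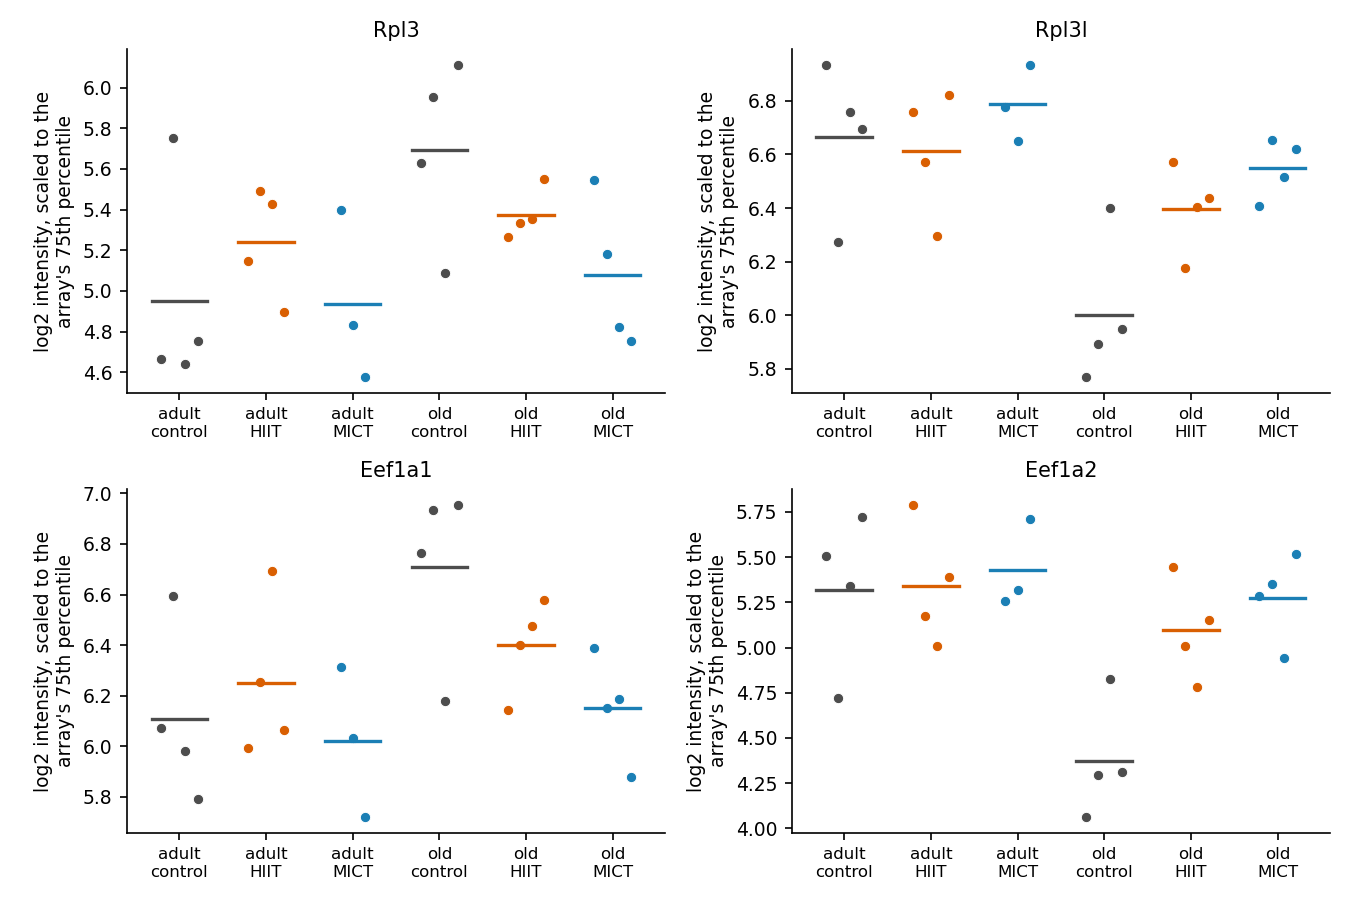
Level of Rpl3, Rpl3l, Eef1a1 and Eef1a2 on each array (points, 3 or 4 per group) with group means (lines), as log2 intensity scaled to the array's 75th percentile. Old controls are highest for Rpl3 and Eef1a1 and lowest for Rpl3l and Eef1a2 by group mean, and adult control 2 lies apart from the other adult controls in every panel.

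Markers of some other cells were also called in the age and old MICT comparisons, where 12.9% and 30.4% of all features were called. Of 14 cell-cycle genes tested, 8 were called higher with age, and old MICT had 10 called lower against its controls. Their summed linear level, in units of the 75th percentile, was 7.12 to 11.2 in adult controls, with adult control 2 highest, 10.6 to 36.6 in old controls, 6.6 to 14 in old HIIT and 2.46 to 9.97 in old MICT. Of 12 T and NK cell markers, 7 were called higher with age and 7 lower with MICT. Of 10 fibroblast markers, 0 were called with age, and 8 were called lower and 1 higher with MICT. Among 9 macrophage markers, 0 were called with age and 4 were called lower with MICT. Among 10 adipocyte markers, 4 were called higher with age and 0 were called with MICT. Among 11 neutrophil markers, 0 were called in either comparison. Of 12 fast-fibre markers, 2 were called lower with age and 3 higher with MICT. Differences above 0 numbered 0 of these 12 with age and 12 with MICT. Among 10 slow-fibre markers, 0 were called in either comparison. The slow-fibre summed level was 850 to 2870 in adult controls, 419 to 2830 in old controls and 444 to 909 in old MICT. Of 8 B and plasma cell markers tested, 6 were called higher with age and 6 lower with MICT, and their summed level was 0.833 to 0.98 in adult controls, 2.87 to 71.5 in old controls and 1.18 to 2.33 in old MICT. Their summed levels ran from 7.66 to 28.9 (T and NK) and 547 to 855 (fibroblast) in old controls. The same sums were 7.71 to 10.8 and 553 to 750 for adult controls, and 7.81 to 9.67 and 533 to 603 for old MICT. Of the 12 T and NK markers, Cd3d, Cd8a, Cd8b1 and Gzmb were well above background on no adult control. Cd3g, Cd247, Cd8a, Cd8b1 and Gzmb were so on no old MICT array. Cd3e, Cd2, Cd4 and Lck were well above background on at least 1 array of both groups. The part of these cells and of fibre type in the Rpl3 and Eef1a values was not tested. In bulk muscle fewer cells of a type and less RNA per cell cannot be told apart. Old controls 1 and 2, which had the highest B cell marker levels, were left out in a further fit, chosen after seeing the data. Rpl3l was then at -0.49 (limma adjusted p = 0.239) for age and 0.38 (limma adjusted p = 0.202) for old MICT. No member was called in either comparison, and the calls among all features fell from 3051 to 24 for age and from 7199 to 403 for old MICT. The share of the smaller number of arrays in this was not tested.

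Rps23rg1, called in old MICT, is a retrogene, an intronless copy of the small-subunit gene Rps23, and because the copies are near-identical the source of its signal is uncertain. Its level was -0.63, -0.75, -0.10 and -1.02 in old controls 1 to 4 and 1.53, 0.99, -0.01 and 0.21 in old MICT 1 to 4. The groups did not overlap, although the gap between old control 3 and old MICT 3 was small. The difference was 1.30 ± 0.29 (SE, limma adjusted p = 0.00597), or 2.47-fold. Rps23 itself differed by 0.000 ± 0.09 (SE, limma adjusted p = 0.999), with a 95% interval from -0.18 to 0.18. Adult arrays lay between -0.54 and 0.25, and among old HIIT arrays 1 stood out at 1.07, with the rest between -0.17 and 0.07.

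Rpl7a, a large-subunit protein, was covered by 4 probes. The brightest read 7.14, 6.89, 6.67 and 7.04 in old controls 1 to 4 and 7.59, 7.57, 7.15 and 7.40 in old MICT 1 to 4. No old control reached an old MICT array, although the nearest were close, at 7.142 on old control 1 and 7.153 on old MICT 3. The difference was 0.49 ± 0.17 (SE, limma adjusted p = 0.0377). The other 3 probes gave 0.27, 0.31 and 0.30. Quantile scaling took the brightest probe to 0.19 (adjusted p = 0.419), and its call was lost in 6 of 12 other settings, with the sign turned in 1 more. The brightest probe also had an outlying 6.23 on adult MICT 4, against 7.34 and 7.17 on the other adult MICT arrays, which lowers its adult MICT mean.

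Rpl36 read 8.26, 8.16, 8.39 and 8.26 in old controls 1 to 4 and 8.65, 8.71, 8.36 and 8.63 in old MICT 1 to 4. Old MICT 3 lay just below old control 3, and the difference was 0.32 ± 0.11 (SE, limma adjusted p = 0.034). Rpl26, which sits near the exit of the nascent chain tunnel and also binds p53 messenger RNA, read 6.85, 6.91, 6.96 and 6.91 in old controls 1 to 4. It read 7.14, 7.21, 7.01 and 7.001 in old MICT 1 to 4, so that the groups did not overlap, although the nearest arrays were close. The difference was 0.18 ± 0.07 (SE, limma adjusted p = 0.0445) for old MICT and -0.22 ± 0.07 (SE, limma adjusted p = 0.0377) for age. Quantile scaling turned the first to -0.11 and took the second to -0.05 (adjusted p = 0.582), and Rpl36 then stood at 0.02 (adjusted p = 0.782). Of 12 other settings, 8 lost the call of Rpl36, 7 that of Rpl26 for age and 9 that of Rpl26 in old MICT, where the sign turned in 1 more.

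**Figure D4:**
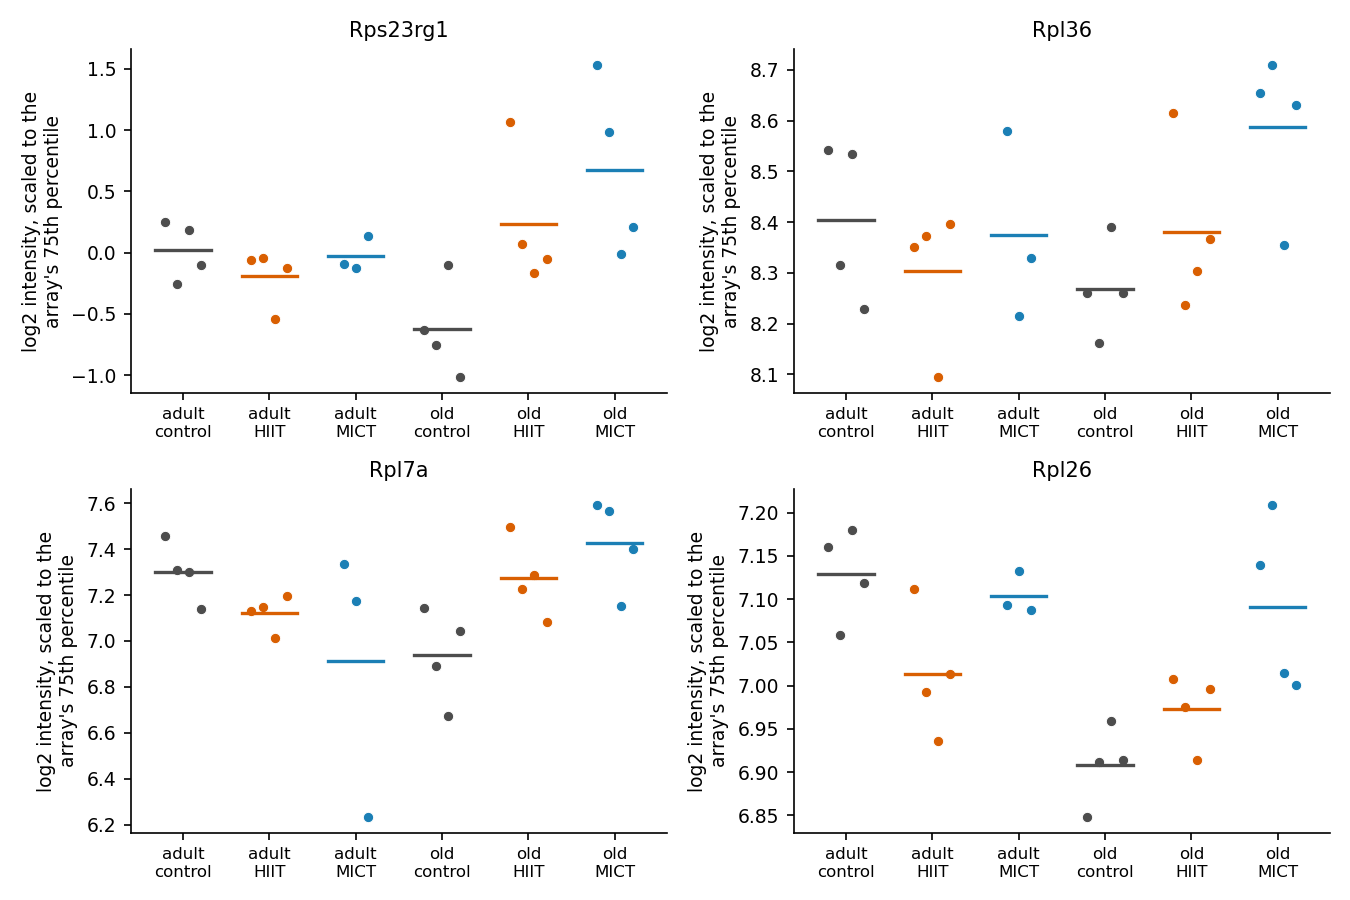
Level of Rps23rg1, Rpl36, Rpl7a and Rpl26 on each array (points) with group means (lines), as log2 intensity scaled to the array's 75th percentile; each panel has its own vertical range. Old MICT 1 and 2 are the highest old MICT arrays in the Rps23rg1, Rpl36, Rpl7a and Rpl26 panels.

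The other paralogues had no call. Rpl22l1, a copy of Rpl22 that also binds RNA outside the ribosome, was at 0.37 ± 0.16 (SE, limma adjusted p = 0.0755) in old MICT, with Rpl22 at 0.003 ± 0.10. Old controls 1 to 4 read 6.49, 6.20, 6.62 and 6.42. Old MICT 1 to 4 read 7.16, 6.97, 6.42 and 6.64, and the groups overlapped. Rpl39l, a form best known from testis, had the lowest difference at -1.28 ± 0.55 (SE, limma adjusted p = 0.0785). It was well above background on 3 of 4 old control arrays and 1 of 4 old MICT arrays, so its values lie near the floor of the array. Rpl36al, Rpl37rt, Rps27l, Rpl7l1 and Rpl32l ran from 0.05 to 0.24 in old MICT. Rpl37rt and Rpl32l had adult control means of 8.61 and 7.41, among the levels of standard members. Whether their probes also read Rpl37 and Rpl32 transcripts was not tested. Rps19bp1, which the naming rule includes although it encodes a binding partner of Rps19, was at 0.10 ± 0.11 (SE).

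Members widely used as reference genes had no call in old MICT. Rplp0, Rplp1 and Rplp2 form the stalk that recruits translation factors, and in old MICT they were at 0.24 ± 0.16, 0.15 ± 0.08 and 0.15 ± 0.10 (SE). Under quantile scaling Rplp0 was at -0.065. Rpl13a was at 0.03 ± 0.08, Rps18 at 0.09 ± 0.10 and Rpl32 at 0.11 ± 0.09 (SE). Rps6, the ribosomal protein phosphorylated downstream of mTOR, was at 0.10 ± 0.07, Rpl10 at 0.21 ± 0.10 and Rpsa, also a laminin receptor, at 0.13 ± 0.17 (SE). The other 2 probes of Rpl13a gave -0.34 and -0.33. Among old controls against adult controls the same 9 genes ran from -0.06 to 0.14, again with no call.

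Within slide 3, old HIIT against old MICT gave 0 of 83 members called and 0% of all features. There were 12 members with an unadjusted p under 0.05, as had 16.8% of all features, and 80 of 83 differences were below 0, where the median of all features was -0.09 and that of the members -0.15. Quantile scaling turned the members' median to 0.04, beside -0.02 for all features, with 66 of 83 members above the latter. The smallest p was that of Rps6, at -0.21 ± 0.07 (SE, limma adjusted p = 0.221), which read 7.45, 7.57, 7.50 and 7.39 in old HIIT 1 to 4 and 7.78, 7.75, 7.58 and 7.63 in old MICT 1 to 4. These Rps6 values did not overlap, as for 5 members (6.02%) and 6.83% of all features. Per array, the median of the members lay at 0.20, 0.25, -0.05 and 0.10 in old MICT 1 to 4 and at 0.05, -0.10, 0.01 and -0.07 in old HIIT 1 to 4.

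The response to training was also compared between ages. For HIIT, 0 of 83 members and 0% of all features were called, with 3 members and 11.4% of all features at an unadjusted p under 0.05. For MICT, 0 of 83 members were called, with 10 at an unadjusted p under 0.05, as had 25.3% of all features, and 0.692% of all features were called. Rpl7a had the smallest p, at 0.88 ± 0.25 (SE, limma adjusted p = 0.0901), a value that contains the outlying adult MICT 4 reading. The old response to MICT exceeded the adult response for 78 of 83 members, with a median of 0.20, which was also the median of all features. Under quantile scaling the members' median was -0.12, beside 0.06 for all features, and 9 of 83 members lay above the latter.

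Other genes of the pathway produce the ribosome or work on it. In old MICT, 21.3% of all features were called higher, and the median of all features was 0.19. Of 62 assembly and rRNA-processing genes, 32 were called higher and 0 lower, with a median of 0.46. Examples are Gnl2, a GTPase of large-subunit assembly, at 0.79 ± 0.15 (SE, limma adjusted p = 0.00344), and Nop14, of small-subunit processing, at 1.01 ± 0.20 (SE, limma adjusted p = 0.00381). Of 34 initiation factors, 24 were called higher and 0 lower, with a median of 0.53, and of 14 genes of RNA polymerase I transcription, 8 were called higher and 0 lower. Under quantile scaling the counts were 16 of 62, 11 of 34 and 4 of 14, with medians of 0.33, 0.27 and 0.35. Among all 23707 features, 3035 were then called higher, and the median was 0.06. The 3 lists kept their direction where that of the ribosomal protein genes turned, and whether a list differs from another was not tested.

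Of 10 elongation factors, 3 were called higher (Eef2, Eef1a2 and Eef1d) and 1 lower (Eef1a1) in old MICT. Among all features, 30.4% were called there and 21.3% were called higher. With age 1 elongation factor was called higher and 4 lower, where 12.9% of all features were called. Eef2, which moves the ribosome along the message, was at 0.53 ± 0.11 (SE, limma adjusted p = 0.00511) and -0.58 ± 0.11 (SE, limma adjusted p = 0.00797). Outside the naming rule, the ribosome components Fau and Rack1 had no call, at -0.002 and 0.18 in old MICT. With age, 3 of 62 assembly genes, 4 of 34 initiation factors and 2 of 14 polymerase I genes were called lower and none higher, where 8.31% of all features were called lower. Of 27 regulators of TOP messenger RNAs and ribosome production, 15 were called higher and 1 lower in old MICT, beside 21.3% of all features called higher.

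Among those regulators, Ddit4, which holds mTOR in check, read 3.92, 3.82, 3.41 and 3.38 in old controls 1 to 4 and 8.81, 8.85, 4.00 and 5.20 in old MICT 1 to 4. Old MICT 1 and 2 stood far above the others, and the difference was 3.09 ± 0.77 (SE, limma adjusted p = 0.00903). Eif4ebp1, a brake on cap-dependent initiation, was at 1.34 ± 0.35 (SE, limma adjusted p = 0.0107), and Larp1 was at 0.55 ± 0.16 (SE, limma adjusted p = 0.0186). Myc, a driver of ribosome production, was not called at 0.57 ± 0.39 (SE, limma adjusted p = 0.259), with 1.14 and 1.18 on old MICT 1 and 2 and -0.81 and -0.75 on old MICT 3 and 4. Old MICT 1 and 2 were thus, within their group, the arrays highest in Ddit4, Myc, Rps23rg1, Rpl22l1 and the members' median. Without old MICT 1 or 2, 3 and 2 members were called in place of 5, and without old MICT 4, old control 1 or old control 2 the counts were 3, 3 and 2.

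Different probes of a gene did not always read alike. Of 50 members with more than 1 tested probe, all probes had the same sign for 40 in old MICT and for 26 with age, and the median range between probes was 0.088 in old MICT. The widest was Rps15a, where the brightest probe gave 0.01 and another 0.84 in old MICT. The count of 5 called members ran from 2 to 11 when single arrays were left out, lowest without old control 2 or old MICT 2 and highest without old MICT 3, with 9 without old control 3. A model with age, training and slide as additive terms called 0 members, and also 0 of all 23707 features, so that the calls of the other lists were lost as well. In that model Rps23rg1 was at 0.23 and Rpl3l at 0.10 for MICT, and Rpl3l was at -0.69 for age (limma adjusted p = 0.527). A fit of only the groups compared called 0 members in both comparisons, and 0 of all features in old MICT and 39 with age, with adjusted p = 0.0577 for Rps23rg1 and 0.0573 for Rpl3l in old MICT and 0.0777 for Rpl3l with age, from unchanged differences.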

How the data were processed

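Per the file headers, Agilent Feature Extraction 12.0.3.1 made the processed intensity of each spot from 1-colour (Cy3) arrays, by background subtraction and detrending within the array, with no scaling between arrays. A deposited series table held scores whose making is not given in the sources used here. They correlated with the log10 processed signal at 0.99954 or more, and their scale and centring stay unknown, with medians between -0.4 and -0.2, so only counts of calls were taken from them. From the deposited intensities, log2 values were computed minus the log2 of each array's 75th percentile. Control spots were left out, spots of a probe were averaged, and 31941 of 55681 probes well above background on at least 3 of 23 arrays were kept. RefSeq accessions were matched to symbols for 28123 of the 29574 probes that carried them, and the brightest probe stood for a gene. All 6 groups were fitted together with limma 3.58.1 in R 4.3.3, with Benjamini-Hochberg adjustment over all 23707 features. The number of arrays limits the precision. The script was tested on simulated data. Members and lists were chosen with earlier results of these data known. Genes named are the called members with the smallest p, the most and least variable, those farthest from the members' median, every paralogue with its parent, common reference genes and, where none was called, those with the smallest p, and the same for the pathway lists; a few genes that fit this rule are not reported here. Alternatives covered background correction, scaling, filters, groups fitted, replicate block, slide, array weights, the deposited table, probe averaging, saturation and single arrays left out.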

Additional observations from a re-analysis of the deposited data

Results flagged for a closer look

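In groups of 4 arrays, an array was noted when its gap to the nearest other array took up a larger part of the group's range than Dixon's critical value allows, which happens by chance in about 1 in 20 groups. Of 60 groups examined, 3 were noted. Rpl3 was 5.75 on adult control 2, where the other adult controls lay between 4.64 and 4.75, and this array also had the highest cell-cycle marker level of its group. Adult HIIT 3 was noted for Rps23rg1, at -0.54 against -0.12 to -0.05 on the others, and for Rpl36, at 8.09 against 8.35 to 8.40.

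For 3 members every adult HIIT array lay below the adult control mean while every old HIIT array lay above the old control mean. This and the check above covered only Rpl3, Rpl3l, Rpl7a, Rpl22l1, Rpl26, Rpl36, Rpl39l, Rplp0, Rps23rg1, Eef1a1, Eef1a2 and the members' median. The other members were not examined, and the share of all features with this pattern was not counted. The response in old minus that in adult mice was 1.07 for Rps23rg1, 0.51 for Rpl7a and 0.18 for Rpl26. The limma test of this difference, adjusted over all features, did not call them (adjusted p = 0.398, 0.437 and 0.463).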

How the results depend on the processing

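For old MICT against old control, the 5 called members became 3 with normexp background correction, 13 with quantile scaling, 2 with the median of features above background as scale, 2 with no filter and 2 in the deposited table. Of all features, 7199 were called, and in that order 4032, 5424, 5705, 5983 and 4107. For old control against adult control, the 2 called members became 11 with quantile scaling, 1 with the median scale, 1 with no filter, 1 with the mean over probes and 5 with array weights, which also gave 1 for the MICT response in old minus adult, in place of 0. Of all features, 3051 were called with age, and in that order 2941, 2275, 2066, 3291 and 7596. The deposited table called 3 members with age, all higher, where the 2 were lower. Fitting only the groups compared, the additive model with slide, and leaving out old controls 1 and 2 (chosen after seeing the data) each gave 0 members in the old MICT comparison and 0 in the age comparison, with 0, 0 and 403 of all features called in old MICT and 39, 0 and 24 with age. The first and last of these fits also used fewer arrays, and the cause of the lost calls was not tested. The additive model takes a training difference as equal at both ages. Leaving out single arrays gave 2 to 11 members for old MICT, 0 to 3 for age (0 without adult control 1 or old control 1), 0 to 1 for old HIIT and 0 to 1 for the MICT response in old minus adult. Quantile scaling turned Rpl26 to -0.11 and Rplp0 to -0.065 in old MICT. The additive model with slide turned Rpl7a in old MICT to -0.023, and in old HIIT Rpl3l to -0.053 and Rps23rg1 to -0.21. With the replicate block, 6 members were called for old MICT and 3 for age, and no count moved by over 1.5 times. Same-numbered arrays of different groups correlated at -0.439 to 0.4 over 55 pairs (median 0.042, other pairs -0.025). No clear pairing by number was seen, although these values cannot settle it, and the main fit left the numbers out. With saturated probes left out nothing changed, since no spot was saturated.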
